A study of Homo sapiens with 12 samples.

Results

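The RNA levels of 10 genes of the pluripotency programme were followed in 2 ovarian cancer cell lines treated with BAY-850. They were chosen by name as POU5F1, NANOG, SOX2, LIN28A, LIN28B, DPPA4, SALL4, DNMT3B, TDGF1 and ZFP42, and all 10 were found among the 26475 gene symbols counted. PA-1 is an established human line from an ovarian teratocarcinoma, a germ cell tumour that holds embryonic-like cells. SK-OV-3 is an established human line from an ovarian adenocarcinoma, an epithelial tumour. BAY-850 is a small molecule that keeps the bromodomain protein ATAD2 from binding acetylated histones. In each line, BAY-850 was given at 5 µM and compared with its vehicle DMSO after 48 h, with 3 biological replicates in each of the 4 groups, so 12 libraries were compared. Each tumour type is represented by 1 line, and nothing states whether the replicates were separate cultures, so p-values measure the spread between these samples. The 2 lines were grown in different media, and the medium cannot be told apart from the line.

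Pluripotent cells keep their identity through a small circuit of transcription factors. POU5F1 (OCT4), SOX2 and NANOG bind many of the same enhancers, their own included, and SALL4, a zinc finger factor, works with them. LIN28A and LIN28B are RNA-binding proteins that block the maturation of let-7 microRNAs, which rise when cells differentiate. DNMT3B adds new methyl groups to DNA, DPPA4 is a chromatin protein of early embryos, TDGF1 (CRIPTO) is a co-receptor for Nodal, and ZFP42 (REX1) is a zinc finger protein used to mark the naive state. In mouse and human embryos these genes are switched off at different times as germ layers form, and a subset is kept in embryonal carcinoma and other germ cell tumours.

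Sequences of the NANOG promoter and of 2 let-7 microRNAs are given as background to this circuit. POU5F1 and SOX2 bind side by side on a composite element, which was searched for as CATTGT followed 1 base later by ATGCAAA, on either strand. It was found in 3 of 35116 RefSeq promoters of 300 bases (0.00854%). NANOG was the one gene among the 6 of 10 with a promoter in that set to hold it. The NANOG promoter lies at chr12:7789152-7789451 of GRCh38.p14 on the plus strand, and the capitals mark the element, which is read on the reverse strand between 120 and 107 bases before the start of transcription.
NANOG promoter: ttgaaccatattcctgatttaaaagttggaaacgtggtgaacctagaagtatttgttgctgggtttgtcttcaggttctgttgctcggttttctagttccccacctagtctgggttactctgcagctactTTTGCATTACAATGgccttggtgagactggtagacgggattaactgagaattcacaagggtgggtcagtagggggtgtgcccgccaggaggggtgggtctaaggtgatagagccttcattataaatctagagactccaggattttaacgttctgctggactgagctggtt

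The let-7 family is represented by 2 members, whose mature strands come from chromosome 22. Whether LIN28 proteins act on the precursors of these 2 members was not tested. The capitals mark the seed, bases 2 to 8, which pairs with target messenger RNAs and is the same in both. Mature microRNAs were not measured in these libraries.
hsa-let-7a-5p: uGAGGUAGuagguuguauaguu
hsa-let-7b-5p: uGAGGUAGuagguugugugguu

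Libraries held 34544505 to 51840233 expected counts, with 7.94% to 16.9% of them on ribosomal RNA genes. The number of genes with a count lay between 17425 and 18414 in 11 libraries. SK-OV-3 BAY-850 replicate 3 stood apart, with the highest total and 15629 genes. Results that rest on that library are given with and without it. Levels are CPM, the expected counts relative to library depth after TMM scaling of the 12 libraries, and p-values are adjusted over all genes that passed edgeR's low count filter in a comparison. The lines differed in epithelial markers. Of the 10 listed, 8 were lower in PA-1 with DMSO and 2 higher, beside 80.3% of all genes tested that differed in either direction. KRT7, an epithelial keratin, was at 438 ± 33.4 CPM (SD, n = 3) in SK-OV-3 with DMSO and at 0.102 ± 0.0746 CPM in PA-1, while PAX8, a factor of Müllerian epithelium, was at 222 ± 7.89 and 0.369 ± 0.395 CPM. KRT18, another epithelial keratin, went the other way, with 342, 325 and 338 CPM in PA-1 with DMSO and 281, 257 and 256 CPM in SK-OV-3. The summed level of the 10 epithelial markers was 933 to 984 CPM in PA-1 with DMSO and 4363 to 4640 CPM in SK-OV-3. The summed level of the 4 leukocyte markers lay between 0.361 and 1.22 CPM across the 12 libraries.

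The 10 genes ranged widely in level in PA-1 cells. In PA-1 with DMSO, LIN28A was at 756 ± 55.0 CPM (SD, n = 3), POU5F1 at 409 ± 37.2 CPM and SOX2 at 224 ± 9.48 CPM, and these 3 genes made up most of the summed level of the 10. LIN28A alone took 48.3% to 49.6% of that sum, which ran from 1441 to 1643 CPM. At the other end, ZFP42 was at 0.338 ± 0.158 CPM, and TDGF1 had 0, 0 and 7 counts in the 3 libraries. Expression in this line was thus clear for 8 of the 10 genes, while TDGF1 and ZFP42 were at or near the limit of detection.

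Per kilobase of exon, the order in PA-1 with DMSO was LIN28A, POU5F1, SOX2, DNMT3B, LIN28B, SALL4, NANOG, DPPA4, ZFP42 and TDGF1. LIN28A was at 189 ± 13.7 CPM per kilobase, POU5F1 at 141 ± 12.8 and SOX2 at 89.3 ± 3.77. DNMT3B was at 15.6 ± 1.02, LIN28B at 9.13 ± 0.0885 and SALL4 at 3.71 ± 0.299 on the same scale. NANOG was at 0.770 ± 0.0589, DPPA4 at 0.361 ± 0.149, ZFP42 at 0.127 ± 0.0594 and TDGF1 at 0.0220 ± 0.0380. The ranges of neighbours in this order did not overlap, except for ZFP42 and TDGF1. With the length of the longest transcript in place of merged exons the order was the same, but the ranges of LIN28A and POU5F1 overlapped, as did those of NANOG and DPPA4. NANOG, a core factor of the circuit, thus had a level per kilobase that was far below those of POU5F1 and SOX2.

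**Figure D1:**
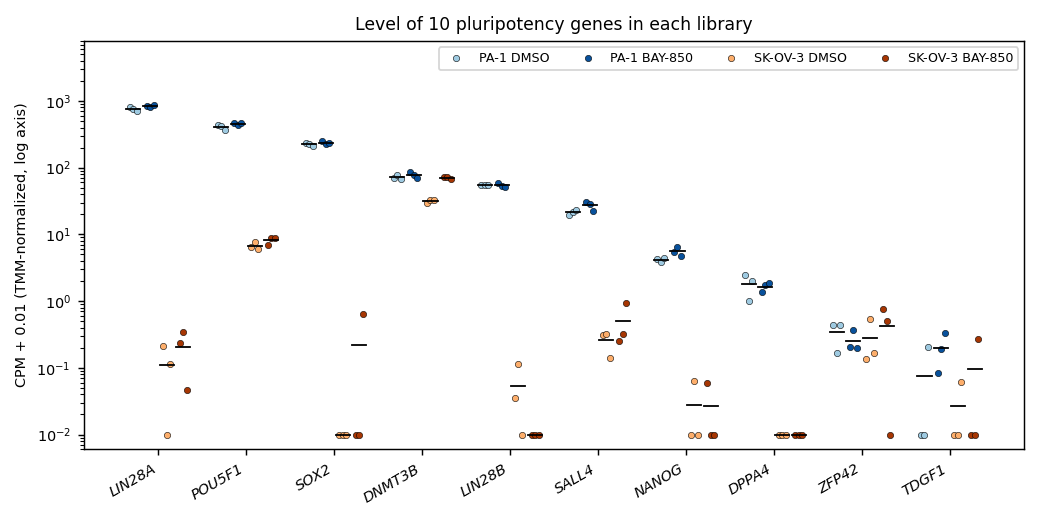
Level of each gene in each of the 12 libraries, on a log axis as TMM-normalized CPM plus 0.01, so that a library without counts sits at 0.01. Points are libraries, bars are group means of 3, and genes are ordered by their mean in PA-1 with DMSO. LIN28A, POU5F1, SOX2, LIN28B, SALL4, NANOG and DPPA4 were higher in every PA-1 library than in any SK-OV-3 library, DNMT3B met the PA-1 range in SK-OV-3 only with BAY-850, and ZFP42 and TDGF1 overlapped between the lines.

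The question of the baseline comparison was which of these genes set PA-1 apart from SK-OV-3 without drug. Of the 10 genes, 9 passed the low count filter and 8 were higher in PA-1. ZFP42 was not called, and TDGF1 did not pass the filter. The lines differ broadly, as 80.3% of the 16070 genes tested were called in either direction and 40.2% were higher in PA-1. NANOG, SOX2, LIN28A, LIN28B and DPPA4 did not pass the filter in SK-OV-3 alone. They entered this comparison through PA-1, where they are high. The 10 genes were also chosen with earlier results of these data known. The count of 8 of 9 beside that share is thus a description and not a test. In bulk RNA, fewer cells that express a gene and less RNA per cell cannot be told apart.

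The core transcription factors gave the following values in the DMSO libraries. POU5F1 (chromosome 6, 31164337 to 31180731, minus strand) had 441, 416 and 368 CPM in PA-1 and 6.46, 7.62 and 6.06 CPM in SK-OV-3. The lines did not overlap, and the log2 difference was 5.92 (SE 0.101, adjusted p = 5.27e-14, edgeR). SK-OV-3 still held 235 to 289.7 POU5F1 counts per library. POU5F1 has processed pseudogenes with near-identical sequence, so a count of this size may include their reads. SOX2 (chromosome 3, 181711924 to 181714436, plus strand) had 234, 224 and 215 CPM in PA-1 and no count in any SK-OV-3 library with DMSO. Against a floor of 3 counts over the SK-OV-3 group it was at least 8715-fold higher in PA-1. NANOG (chromosome 12, 7787794 to 7799141, plus strand) had 147, 171 and 156 counts in PA-1 and 0, 2 and 0 in SK-OV-3. The ratio of the summed counts was 240.3 with a 95% interval of 66.2 to 1989.9, which covers counting error only. NANOG also has pseudogenes that could share its reads.

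SALL4 (chromosome 20, 51782331 to 51802520, minus strand) had 19.5, 21.7 and 22.9 CPM in PA-1 and 0.302, 0.315 and 0.129 CPM in SK-OV-3. The log2 difference was 6.41 (SE 0.221, adjusted p = 2.88e-11, edgeR). DPPA4 (chromosome 3, 109326141 to 109337572, minus strand) had 84, 44 and 71 counts in PA-1 and none in SK-OV-3, and was at least 67.3-fold higher in PA-1 by the same floor. ZFP42 (chromosome 4, 187995771 to 188005050, plus strand) had 15, 7 and 15 counts in PA-1 and 5, 20 and 6 in SK-OV-3. These ranges overlapped, and the ratio of the summed counts was 1.21 with an interval of 0.731 to 2.02 (adjusted p = 0.693, edgeR). TDGF1 (chromosome 3, 46574534 to 46582463, plus strand) had a ratio of summed counts of 3.55 with an exact interval of 0.676 to 35.0.

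The LIN28 genes showed the widest gap that could be measured on counts in both lines. LIN28A (chromosome 1, 26410778 to 26429722, plus strand) had 28211, 33668 and 24917 counts in PA-1 and 8, 0 and 4 in SK-OV-3. The ratio of the summed counts was 7333, with a 95% interval of 4198 to 14193 from counting error. LIN28B (chromosome 6, 104936616 to 105083332, plus strand) had 1917, 2468 and 1918 counts in PA-1 and 1, 4 and 0 in SK-OV-3, a ratio of 1278 with an interval of 547 to 3938. DNMT3B (chromosome 20, 32762385 to 32809356, plus strand) was the one gene of the 10 that was well expressed in both lines. It had 71.2, 77.6 and 68.4 CPM in PA-1 and 29.3, 32.5 and 32.4 CPM in SK-OV-3, and was 2.30-fold higher in PA-1 (SE 0.0725 on the log2 scale, adjusted p = 6.74e-09, edgeR).

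A wider set of 32 other pluripotency factors gave the state of PA-1 more detail. Of the 23 that passed the filter in the DMSO comparison, 16 were higher in PA-1 and 5 lower. That was a share of 91.3% beside 80.3% of all genes tested. PRDM14, a repressor that guards pluripotency, was at 30.6 ± 1.68 CPM (n = 3) in PA-1 and had 3 counts in all SK-OV-3 libraries with DMSO. OTX2 and SOX3, factors of primed and early neural cells, were at 16.8 ± 1.31 and 17.0 ± 1.02 CPM in PA-1 with no count in SK-OV-3. Genes linked to the naive state were mixed. In PA-1, KLF4 was at 1.74 ± 0.203 CPM, TFCP2L1 at 0.411 ± 0.170 CPM and KLF17 at 0 counts, while TFAP2C was at 55.3 ± 2.20 CPM, KLF5 at 47.1 ± 1.12 CPM and KLF2 at 15.7 ± 1.95 CPM. In SK-OV-3, KLF4 was at 104 ± 3.92 CPM, TFCP2L1 at 9.99 ± 0.965, KLF5 at 231 ± 10.8, KLF2 at 9.79 ± 0.508 and TFAP2C at 0.344 ± 0.0589 CPM.

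Markers of differentiated lineages were also counted in PA-1. NES, an intermediate filament of neural precursors, was at 687 ± 7.24 CPM (n = 3) in PA-1 with DMSO and ZIC2 at 117 ± 3.67 CPM, against 29.4 ± 0.623 and 64.9 ± 3.31 CPM in SK-OV-3. The summed level of the 14 neuroectoderm markers was 934 to 947 CPM in PA-1 with DMSO, mostly from NES, and 115 to 126 CPM in SK-OV-3. Of the 10 neuroectoderm markers tested, 8 were higher in PA-1 and none lower, beside 80.3% of all genes called in either direction. PAX6 was at 11.7 ± 0.362 CPM in PA-1 and 1.60 ± 0.264 CPM in SK-OV-3, and MAP2 at 80.9 ± 9.38 and 18.2 ± 1.93 CPM. SOX1, another marker on that list, had no count in any library. In PA-1 with DMSO the summed level was 149 to 162 CPM for the 13 mesoderm and primitive streak markers, 111 to 121 CPM for the 14 trophoblast and germ cell markers, at most 31.0 CPM for the 12 endoderm markers and 4.21 to 4.95 CPM for the 4 yolk sac or liver-like markers. In SK-OV-3 with DMSO these sums were 60.2 to 63.8, 83.2 to 90.7, 125 to 131 and 0.657 to 1.18 CPM in the same order. The endoderm sum was thus higher in SK-OV-3.

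With BAY-850 no gene of the set was called changed in PA-1 cells. None of the 9 that passed the filter was past the threshold in edgeR's quasi-likelihood test, in a comparison in which 7.13% of 15212 genes were called. At the same adjusted threshold the count was 1 by DESeq2, in which 1007 of all genes tested rose and 667 fell. It was 0 by limma-voom, in which 714 rose and 379 fell. By edgeR it was 4 at an unadjusted p under 0.05. The share of all genes at that unadjusted threshold is not given, and the 7.13% does not apply to it. No conclusion is drawn from that count. The fitted log2 fold changes ran from -0.43 to 0.43, with a median of 0.12 beside -0.00 over all genes tested. The groups did not overlap for 2 of the 9 genes, NANOG and LIN28A, beside 27.4% of all genes tested.

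The abundant genes of PA-1 were bounded closely. LIN28A had 814, 748 and 705 CPM with DMSO and 835, 815 and 863 CPM with BAY-850. Its log2 fold change was 0.15 with a 95% interval of 0.02 to 0.27 (adjusted p = 0.138, edgeR). The BAY-850 libraries lay just above the DMSO libraries. POU5F1 had 468, 434 and 463 CPM with BAY-850, beside the DMSO values above, with an interval of 0.01 to 0.29 (adjusted p = 0.169, edgeR). SOX2 had 255, 223 and 234 CPM with BAY-850, and its interval ran from -0.05 to 0.21. LIN28B had 55.3, 54.8 and 54.3 CPM with DMSO and 58.4, 53.5 and 51.2 CPM with BAY-850, with an interval of -0.15 to 0.12. For SOX2 and LIN28B the groups overlapped, and each interval held 0.

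SALL4 and NANOG had the largest fitted increases among the genes of this set. SALL4 had 19.5, 21.7 and 22.9 CPM with DMSO and 30.5, 28.8 and 22.7 CPM with BAY-850. BAY-850 replicates 1 and 2 lay above the DMSO libraries and replicate 3 lay among them. The log2 fold change was 0.35 (SE 0.105, adjusted p = 0.0582, edgeR), just outside the threshold of 0.05. The call was made under 5 of 17 alternatives, including DESeq2 (adjusted p = 0.0249) and the fit without PA-1 BAY-850 replicate 3, in which the log2 fold change was 0.47 (adjusted p = 0.00594, edgeR). NANOG had 4.24, 3.80 and 4.41 CPM with DMSO and 5.42, 6.54 and 4.81 CPM with BAY-850. Its log2 fold change was 0.43 (SE 0.168, adjusted p = 0.135, edgeR), from 147 to 257 counts per library.

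The scarce genes of PA-1 were less well determined. DPPA4 had 84, 44 and 71 counts with DMSO and 55, 67 and 70 with BAY-850, and its log2 fold change was -0.14 with an interval of -0.86 to 0.58. Its CPM varied by 41.3% between the DMSO replicates, while counting error alone gives 12.3%. ZFP42 had 8, 14 and 7 counts with BAY-850, and its interval ran from -1.76 to 0.89. TDGF1 had 3, 7 and 11.7 counts with BAY-850 against 0, 0 and 7, which is too few for the test. Changes within these intervals could not be told from no change for DPPA4 and ZFP42.

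Removal of the trend of fold changes with GC content in PA-1 changed no call among the 9 genes. The log2 fold change then was 0.32 for SALL4, 0.46 for NANOG, 0.14 for both LIN28A and POU5F1, and 0.10 in place of -0.01 for LIN28B. By the longest transcript of each gene, LIN28B has the lowest GC content of the 10 (38.1% of bases).

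**Figure D2:**
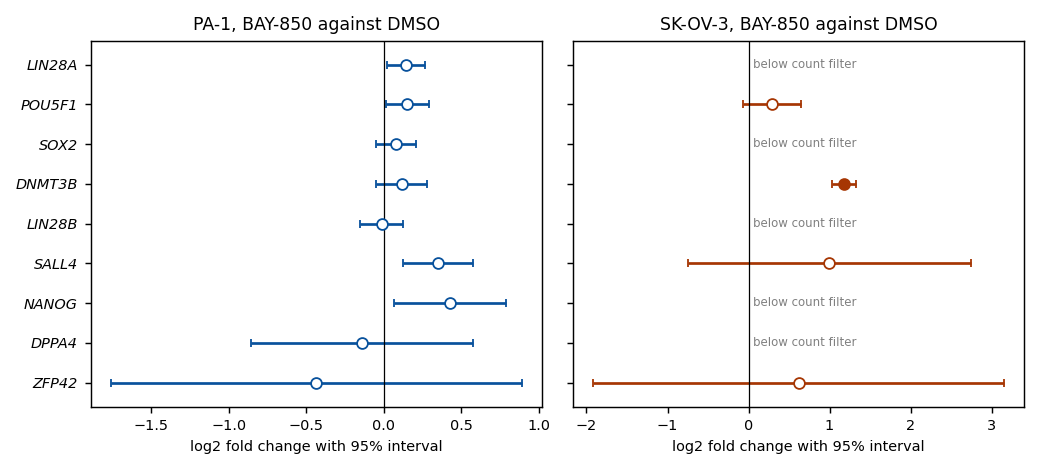
Log2 fold change of each gene with BAY-850 against DMSO in PA-1 (left) and SK-OV-3 (right), with 95% intervals from edgeR's quasi-likelihood fit of 3 against 3 libraries. Filled points have an adjusted p under 0.05, open points do not, and genes under the count filter in SK-OV-3 have no point. In PA-1 the intervals of the abundant genes lay within 0.30 of 0, and in SK-OV-3 DNMT3B stood at 1.18.

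SOX2-OT, a long noncoding RNA transcribed through SOX2 on the same strand (chromosome 3, 180989762 to 181836880), was lower with BAY-850 in PA-1. It was chosen after its values were seen. It had 9.21, 9.31 and 8.43 CPM in PA-1 with DMSO and 6.13, 6.11 and 6.74 CPM with BAY-850, without overlap, and fell by 0.51 on the log2 scale (SE 0.126, adjusted p = 0.0269, edgeR). The call was lost with the GC trend removed (adjusted p = 0.113) and without PA-1 DMSO replicate 1 (0.0864) or 2 (0.103) or BAY-850 replicate 1 (0.0713) or 2 (0.117), all by edgeR. It was also lost when all 12 libraries shared one fit (adjusted p = 0.449, edgeR). SOX2 lies within the span of SOX2-OT, and whether the 2 genes shared reads in the authors' counting was not tested.

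In SK-OV-3 cells BAY-850 treatment raised DNMT3B, the one gene of the set that this line expressed strongly. It had 29.3, 32.5 and 32.4 CPM with DMSO and 71.3, 72.3 and 68.3 CPM with BAY-850. The groups were far apart compared with their spread, and the fold change was 2.26 (log2 1.18, SE 0.0681, adjusted p = 6.89e-07, edgeR). The call held under each of the 17 alternatives, and without BAY-850 replicate 3 the log2 fold change was 1.19. DNMT3B was 1 of 4 genes of the set that passed the filter, while 20.4% of the 15348 genes tested were called in this line. It was also the one of these 4 without overlap between the groups, beside 38.6% of all genes tested.

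The other 3 genes tested in SK-OV-3 were not called. POU5F1 had 6.46, 7.62 and 6.06 CPM with DMSO and 6.94, 8.75 and 8.79 CPM with BAY-850. Its log2 fold change was 0.29 with an interval of -0.07 to 0.65 (adjusted p = 0.250, edgeR). SALL4 had 12, 12 and 5 counts with DMSO and 10, 13 and 49 with BAY-850. Its log2 fold change of 1.00 (adjusted p = 0.421, edgeR) was 0.15 without BAY-850 replicate 3. ZFP42 had 31, 21 and 0 counts with BAY-850, and its log2 fold change of 0.62 (interval -1.92 to 3.15) was 1.22 without that library. SOX2 had 34 counts and TDGF1 14 counts in BAY-850 replicate 3 and none in the other BAY-850 libraries. The same library had 2 counts of LIN28A and none of LIN28B, NANOG or DPPA4. The source of these counts was not tested.

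The lines responded differently for DNMT3B. The response of PA-1 was lower than that of SK-OV-3 by 1.05 on the log2 scale (interval -1.29 to -0.81, adjusted p = 2.10e-05, interaction term in edgeR), and 14.5% of the 16830 genes tested had a response that differed. In PA-1, DNMT3B had 87.5, 78.2 and 70.1 CPM with BAY-850, which overlapped the DMSO libraries (log2 0.12, adjusted p = 0.404, edgeR). With BAY-850 in both lines the difference between PA-1 and SK-OV-3 was 0.14 on the log2 scale (adjusted p = 0.128, edgeR), where PA-1 had been 2.30-fold higher with DMSO. The difference of the responses was not called for POU5F1 (-0.13, adjusted p = 0.591), SALL4 (-0.69, adjusted p = 0.428) or ZFP42 (-1.07, adjusted p = 0.695, edgeR). No difference is given for NANOG, SOX2, LIN28A, LIN28B and DPPA4, which were at or near 0 in SK-OV-3.

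Enzymes that write, copy and erase DNA methylation gave the setting of the DNMT3B response. Of 8 such genes besides DNMT3B, 7 passed the filter in each line. In PA-1, 4 of 7 rose and none fell, beside 7.13% of all genes called, with a median log2 fold change of 0.31. TET1, which oxidises methylated cytosine, rose from 67.7 ± 2.93 to 109.6 ± 8.34 CPM (n = 3, log2 0.69, adjusted p = 1.15e-05, edgeR). TET2 rose by a log2 of 0.56 (adjusted p = 0.0368), UHRF1, which brings DNMT1 to replicating DNA, by 0.36 (adjusted p = 0.00534) and DNMT1, which copies methylation, by 0.31 (adjusted p = 0.00663, edgeR).

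In SK-OV-3, 2 of the 7 enzymes fell and none rose, beside 20.4% of all genes called, with a median of -0.25. UHRF1 fell from 49.6 ± 0.661 to 30.7 ± 2.52 CPM (n = 3) and DNMT1 from 143 ± 3.91 to 104 ± 10.4 CPM, with log2 fold changes of -0.68 (adjusted p = 0.000166) and -0.45 (adjusted p = 0.000689, edgeR). TET1 was at 4.32 ± 0.556 and 3.34 ± 0.936 CPM, which overlapped. The response differed between the lines for TET1 (1.09, adjusted p = 0.00170), UHRF1 (1.06, adjusted p = 5.17e-06), TET2 (0.82, adjusted p = 0.00845) and DNMT1 (0.77, adjusted p = 8.41e-05, edgeR). DNMT3A, the other enzyme that adds new methylation, was not called in either line. Its log2 fold change was 0.03 in PA-1 (adjusted p = 0.837) and 0.13 in SK-OV-3 (adjusted p = 0.439, edgeR).

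**Figure D3:**
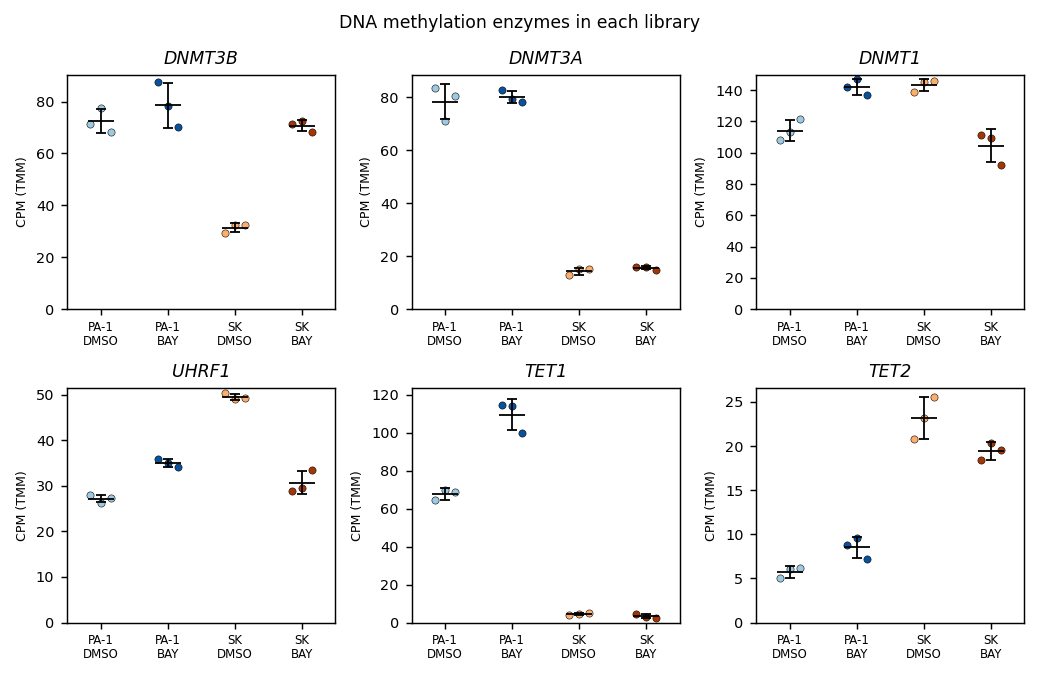
Levels of DNMT3B and 5 other DNA methylation enzymes in the 12 libraries, as TMM-normalized CPM on linear axes from 0. Points are libraries, and horizontal marks with bars are the mean and SD of 3. In SK-OV-3, DNMT3B rose with BAY-850 while DNMT1 and UHRF1 fell. In PA-1, TET1 rose from 67.7 to 109.6 CPM and DNMT3B overlapped between the treatments.

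Of 18 genes around LIN28 and let-7, 12 were higher in PA-1 with DMSO and 2 lower, a share of 77.8% beside 80.3% of all genes tested. MIRLET7BHG, the host transcript of let-7a-3 and let-7b (chromosome 22, 46053869 to 46113928, plus strand), was chosen after its values were seen. It had 340, 244 and 205 counts in SK-OV-3 with DMSO and 0, 1 and 4 in PA-1, the reverse of the LIN28 genes. With BAY-850 it had 289, 302 and 356 counts in SK-OV-3 and none in PA-1, and its log2 fold change in SK-OV-3 was 0.05 (interval -0.36 to 0.46). IGF2BP1 and HMGA2, known let-7 targets, were at 230.0 ± 15.8 and 242 ± 13.1 CPM (n = 3) in PA-1 with DMSO and at 0.343 ± 0.194 and 118 ± 3.89 CPM in SK-OV-3.

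With BAY-850, 2 of the 18 genes of the LIN28 and let-7 list rose in PA-1 and none fell, beside 7.13% of all genes called. In SK-OV-3, 4 of 16 rose and 2 fell, beside 20.4% of all genes. The genes called in PA-1 were IGF2BP1 (log2 0.23, adjusted p = 0.0413) and the cyclin CCND2 (log2 0.19, adjusted p = 0.0426, edgeR), called in 8 and 7 of 17 alternatives. HMGA1, a chromatin protein of high level in embryonic cells, rose in SK-OV-3 from 732 ± 34.5 to 1484 ± 42.9 CPM (n = 3, log2 1.03, adjusted p = 8.32e-08, edgeR). In PA-1 it was at 2518 ± 75.1 and 2697 ± 163 CPM (log2 0.10), and the responses differed by -0.92 (adjusted p = 6.91e-07, edgeR). DROSHA, which cuts microRNA precursors in the nucleus, fell in SK-OV-3 by 0.34 on the log2 scale (adjusted p = 0.0293, edgeR), while IGF2BP2 rose by 0.48 (adjusted p = 0.000374) and E2F5 by 0.33 (adjusted p = 0.0222, edgeR).

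**Figure D4:**
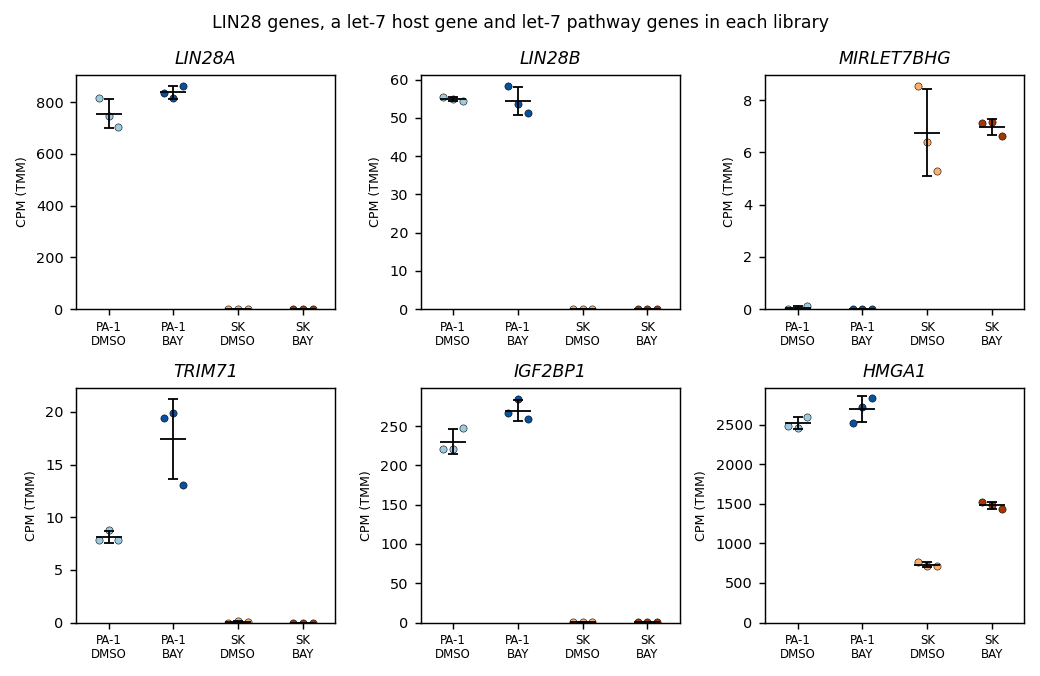
Levels of LIN28A, LIN28B, the let-7 host MIRLET7BHG, TRIM71, IGF2BP1 and HMGA1 in the 12 libraries, as TMM-normalized CPM on linear axes from 0, with the mean and SD of 3. LIN28A, LIN28B, TRIM71 and IGF2BP1 were near 0 in SK-OV-3 and MIRLET7BHG was near 0 in PA-1. TRIM71 rose with BAY-850 in PA-1 and HMGA1 rose in SK-OV-3.

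Among the 32 other pluripotency factors, TRIM71 had the largest change of those called in PA-1. TRIM71 (LIN41), an RNA-binding ubiquitin ligase and a classical let-7 target, had 272, 397 and 276 counts with DMSO and 797, 780 and 495 with BAY-850. The groups did not overlap, and the log2 fold change was 1.09 (SE 0.145, adjusted p = 0.000327, edgeR), between 0.99 and 1.26 under the alternatives. In SK-OV-3 it had 0 to 6 counts per library. In all, 3 of 25 factors rose in PA-1 and none fell, beside 7.13% of all genes called. The other 2 were CD9 (log2 0.41, adjusted p = 0.00534) and PODXL (log2 0.25, adjusted p = 0.00914, edgeR), surface proteins used as markers of pluripotent cells. In SK-OV-3, 4 of 17 rose and 3 fell, beside 20.4% of all genes called. CD9 rose by 0.73 (adjusted p = 3.04e-05) and the deubiquitinase USP44 by 0.43 (adjusted p = 0.0131), while TFCP2L1 fell by 1.05 (adjusted p = 0.00213) and KLF2 fell by 0.65 on the log2 scale (adjusted p = 0.00930, edgeR).

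Nodal, activin and FGF signalling keep the primed pluripotent state. The ligand NODAL had 30 counts in the 3 PA-1 libraries with DMSO together, FGF4 had none in any library, and FGF2 was at 65.9 ± 1.57 CPM (n = 3). Of 21 genes of these pathways that passed the filter in PA-1, 2 rose and none fell, a share of 9.52% near the 7.13% of all genes. SMAD7, a feedback inhibitor of the pathway, rose from 28.1 ± 3.73 to 44.7 ± 1.85 CPM (log2 0.67, adjusted p = 0.000284), and the receptor FGFR1 rose from 449 ± 9.74 to 542 ± 19.9 CPM (log2 0.27, adjusted p = 0.00654, edgeR). In SK-OV-3, 3 of 18 rose and 2 fell, beside 20.4% of all genes called in either direction. SMAD3, which carries the activin signal, rose by 0.83 (adjusted p = 6.21e-06) and the receptor ACVR2B by 0.45 (adjusted p = 0.0197, edgeR). The ERK phosphatase DUSP6 fell by 0.85 (adjusted p = 0.000254) and the protease FURIN fell by 0.22 on the log2 scale (adjusted p = 0.0194, edgeR).

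Relatives of the members were tested in the same fits. Of 13 SALL, POU, SOX and YY genes tested in PA-1, SOX12 (log2 0.41, adjusted p = 0.00116) and SOX9 (log2 0.41, adjusted p = 0.00206, edgeR) rose and none fell. The share called over all genes was 7.13% in PA-1 and 20.4% in SK-OV-3. In SK-OV-3, 1 of 10 rose and 3 fell, SOX9 by 0.80 (adjusted p = 0.0190), SOX4 by 0.33 (adjusted p = 0.000942) and SALL1 by 0.25 on the log2 scale (adjusted p = 0.0125, edgeR). SALL1, a relative of SALL4, was in PA-1 at 181 ± 14.3 CPM (n = 3) with DMSO.

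Medians of the lists were close to those of all genes in several cases. In PA-1 the median log2 fold change was 0.13 for the other pluripotency factors, 0.08 for the LIN28 and let-7 list, 0.05 for Nodal, activin and FGF signalling and 0.17 for the relatives, beside -0.00 over all genes. In SK-OV-3 these medians were 0.06, 0.08, 0.02 and -0.18 in the same order, beside -0.01 over all genes.

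Germ layer markers were compared beside the pluripotency genes. In PA-1 with BAY-850, 1 of 10 neuroectoderm markers, 1 of 10 mesoderm and primitive streak markers, 1 of 7 endoderm markers and 0 of 6 trophoblast and germ cell markers rose, and none fell. Over all genes tested in PA-1, 7.13% were called, so these small counts do not set the germ layer markers apart. CXCR4, a chemokine receptor counted here with the endoderm markers, had 8, 11 and 10 counts with DMSO and 107, 107 and 110 with BAY-850 (log2 3.42, adjusted p = 1.08e-05, edgeR). SOX17, another gene of the endoderm list, had 4 counts with DMSO and none with BAY-850 in PA-1. HAND1, a mesoderm factor, had 2, 13 and 4 counts with DMSO and 51, 23 and 27 with BAY-850 (log2 2.38, adjusted p = 0.0272, edgeR), and TBXT, listed as T, had no count in any library. ZIC2 rose by a log2 of 0.31 (adjusted p = 0.00351, edgeR). In SK-OV-3, 2 of 9 neuroectoderm markers fell, none of 10 mesoderm markers was called, 2 of 8 endoderm markers rose and 1 fell, and 1 of 8 trophoblast and germ cell markers fell. Over all genes tested in SK-OV-3, 20.4% were called.

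Markers of other cells moved with treatment as well. The summed level of 5 fibroblast markers, mostly COL1A1, was 445 to 559 CPM in PA-1 with DMSO and 588 to 638 CPM with BAY-850, and 180.3 to 189.4 and 88.5 to 117 CPM in SK-OV-3. The summed level of 10 epithelial markers was 4363 to 4640 CPM in SK-OV-3 with DMSO and 3217 to 3696 CPM with BAY-850. DCN, 1 of the 5 fibroblast markers, had a mean of at most 0.0162 CPM in any group. LUM, another of them, had 5.18, 6.70 and 6.19 CPM in SK-OV-3 with DMSO and 1.62, 1.11 and 1.04 CPM with BAY-850. Its log2 fold change there was -2.25 (adjusted p = 0.000113, edgeR). Of these markers 1 of 3 fibroblast and 1 of 9 epithelial genes tested rose in PA-1 and none fell, while in SK-OV-3 3 of 4 fibroblast and 5 of 10 epithelial genes fell and 1 epithelial gene rose. The share called over all genes was 7.13% in PA-1 and 20.4% in SK-OV-3. No leukocyte marker and no yolk sac or liver-like marker was called in either line. The part of these markers in the results above was not tested.

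The genes whose profile over the 12 libraries was most like that of each member were named by the root mean square difference of log2 CPM after each gene was centred on its mean in PA-1 with DMSO, among 13324 genes with at least 1 CPM in PA-1 with DMSO. POU5F1 was nearest to FAIM2 (0.173), DNMT3B to SEMA3B (0.160), DPPA4 to C5orf38 (0.239), NANOG to RASGRP2 (0.308) and SALL4 to ROR2 (0.373). LIN28B was nearest to ANKFY1 (0.426), SOX2 to PTPRZ1 (0.757) and LIN28A to SFRP2 (1.10). A prior count of 2 is added before the log2. For a gene near 0 in SK-OV-3 the drop between the lines therefore depends on its level in PA-1. FAIM2 was at 2.54 CPM in PA-1 with DMSO, beside 409 CPM for POU5F1. A small distance thus need not mean a shared fold difference, nor a large one a pattern of its own. ZFP42, with its low counts, was nearest to FAM86HP (0.666).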

How the data were processed

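Total RNA from 12 samples of 2 established human cell lines was sequenced on an Illumina platform. The labels give 2 accounts of the library, a stranded protocol with oligo-dT selection of 500 ng of RNA and one with depletion of ribosomal RNA, and which was used is not settled here. The deposited values are expected counts per gene symbol, which the authors made with Bowtie2 2.1.0 and RSEM 1.2.15 on hg38 according to the submitters' processing notes. RSEM divides reads shared by related or overlapping genes. Symbols were matched to GENCODE for length and GC content.

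Expected counts were rounded to whole numbers and tested with edgeR 4.0.16 (R 4.3.3) by the quasi-likelihood test, with TMM scaling, edgeR's filter on low counts and Benjamini-Hochberg adjustment over all genes tested, at a threshold of 0.05. BAY-850 was compared with DMSO within each line, the responses of the lines by an interaction term, and the lines with DMSO. The SE is the log2 fold change divided by the square root of F. Alternatives used DESeq2 1.42.0, limma-voom (limma 3.58.1), other scalings and filters, GC and length correction, a replicate block and leaving out each library. An exact permutation test of 3 against 3 cannot go below 0.1 and was not used. Ratios of summed counts carry exact 95% binomial intervals, which cover counting error only, and a group without counts was set to a floor of 3 counts over the group. On simulated 2-fold changes the fit recovered 94.0% in PA-1, 92.4% in SK-OV-3, 64.0% for the interaction and 95.5% between lines. Promoters and microRNAs are from RefSeq on GRCh38.p14. Members were chosen by name, and members and the 13 lists were chosen with earlier results of these data known. Genes named from a list are those called with the largest changes, beside markers shown for their level, and SOX2-OT, MIRLET7BHG and let-7 were chosen after values were seen.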

Additional observations from a re-analysis of the deposited data

Results flagged for a closer look

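The genes below are the members and the genes of 5 lists related to them whose response to BAY-850 differed between PA-1 and SK-OV-3 by the interaction term of edgeR's fit, in which 14.5% of all genes tested were called. Genes of the marker lists are left out. The values are the log2 response of PA-1 minus that of SK-OV-3, with 3 libraries in each of the 4 groups. The one member was DNMT3B, at -1.05. Among DNA methylation enzymes the difference was 1.09 for TET1, 1.06 for UHRF1, 0.82 for TET2 and 0.77 for DNMT1, all opposite in sign to DNMT3B. Among genes around LIN28 and let-7 it was -0.92 for HMGA1, -0.41 for E2F5, -0.39 for IGF2BP2, 0.52 for DROSHA and 0.41 for DGCR8. Among Nodal, activin and FGF genes it was 0.78 for DUSP6, 0.65 for SMAD7, 0.35 for FGFR1, 0.28 for FURIN, -0.24 for SMAD2, -0.31 for ACVR2B and -0.69 for SMAD3. Among other pluripotency factors it was 0.76 for KLF2, 0.43 for PHC1, 0.26 for PODXL and -0.55 for KLF4, and TRIM71 was called but is near 0 in SK-OV-3 and is given no value. Among relatives of the members it was 1.23 for SOX9, 0.41 for SALL1 and 0.38 for SOX4. Groups of 3 libraries were not tested for single outlying values.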

How the results depend on the processing

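The number of members called in SK-OV-3 was 1 under each alternative. In PA-1 it was 1 instead of 0, SALL4, with DESeq2, without a filter, with at least 10 counts in every library and with the length trend removed, and 0 to 1 when a library was left out (1 without PA-1 BAY-850 replicate 3). The number whose response differed was 2 instead of 1 without a filter and with the replicate block, and 1 to 2 when a library was left out, the added gene being LIN28B or SOX2, both near 0 in SK-OV-3. Between the lines it was 2 instead of 8 with at least 10 counts in every library, since fewer genes were then tested. Replicate numbers did not pair the samples, with correlations of same-numbered deviations from -0.0417 to 0.0420. Values below are log2 differences, none of them past the threshold unless said, and the cause of each turn was not tested. In PA-1, LIN28B was 0.10 with the GC trend removed and -0.070 to 0.027 when a library was left out (0.027 without BAY-850 replicate 3), and DPPA4 was -0.45 to 0.13 (0.13 without DMSO replicate 1). In SK-OV-3, ZFP42 was -0.81 by limma-voom and -0.14 to 1.55 when a library was left out, and MIRLET7BHG was -0.0071 with the GC trend removed and -0.10 to 0.26. The difference of the responses was 0.51 for ZFP42 by limma-voom and -1.003 to 0.20 for SALL4 when a library was left out (0.20 without SK-OV-3 BAY-850 replicate 3). Between the lines, ZFP42 was -0.036 to 1.23 when a library was left out. In the BAY-850 libraries ZFP42 was -0.76, UHRF1, called lower in PA-1 with DMSO, was 0.18, and DNMT3B was 0.14 and no longer called. Per kilobase of the longest transcript, POU5F1 was at 179.5, DNMT3B at 16.7, LIN28B at 9.96, SALL4 at 4.11 and DPPA4 at 0.593 CPM in PA-1. Over all genes, 707 rose and 378 fell in PA-1, against 1007 and 667 by DESeq2, 235 and 231 by library size alone, 543 and 505 without ribosomal RNA in the library size, 450 and 127 with the GC trend removed, 469 and 214 with 12 libraries in one fit, and 273 and 71 without BAY-850 replicate 2. In SK-OV-3, 1662 rose and 1468 fell, against 993 and 788 without DMSO replicate 2. TDGF1, ZFP42 and DPPA4 had under 100 counts in every library, and DPPA4 varied between PA-1 DMSO replicates by 41.3%, beside 12.3% from counting.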
